A study of Mus musculus with 4 samples.

Results

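Interferon-stimulated genes are genes whose transcription is raised when a cell receives an interferon signal. The 43 genes described here were chosen by name: 4 transcription factors, 5 RNA sensors and 34 antiviral effectors. All 43 had a row in the deposited tables, which hold 22492 gene symbols. Of the 43, 37 reached an FPKM of 1 in at least 1 of 4 libraries and were compared, among 13458 genes compared in all. A further 5 (Oasl1, Oas2, Oas3, Mx1 and Zbp1) stayed under that level in every library, and Adar had a row that the authors' software marked as failed in 1 library. These 6 are described separately. FPKM is a fragment count divided by transcript length and by the number of fragments mapped, so that levels can be compared between genes of different length.

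RNA came from hippocampal cultures of newborn (P0) CD1 mice, an outbred strain, grown for 11 days in vitro. On day 4 the cultures received lentivirus, either the pLKO.1 vector or a virus that expresses a short hairpin RNA against Kdm6b, which encodes a histone demethylase. On day 11 they were harvested untreated or after 3 h with bicuculline (given in the labels as 50µm) and 2.5 mM 4-aminopyridine, together called Bic/4AP. The first drug removes inhibition through GABA-A receptors, the second inhibits potassium channels, and the pair makes neurons fire. All 4 groups therefore carried lentivirus and differed in hairpin and treatment: vector untreated, vector Bic/4AP, hairpin untreated and hairpin Bic/4AP. Lists of 4 values below follow this order. There was 1 library per group and 1 hairpin sequence, so no difference was tested and the spread between cultures is unknown. The labels name the control virus as the vector and give no hairpin for it, so the presence of a hairpin and the loss of Kdm6b cannot be told apart.

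Type I interferons bind a receptor made of Ifnar1 and Ifnar2, whose kinases phosphorylate Stat2. A complex that holds Stat2 and Irf9 then enters the nucleus and binds a promoter element called the interferon-stimulated response element (ISRE). Interferon gamma acts through a separate receptor and a different element, the gamma-activated site (GAS). Cells that detect viral RNA through sensors such as RIG-I start this loop by making interferon, and among the genes it raises are the sensors and transcription factors themselves. In brain, neurons, astrocytes and microglia can each express these genes.

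The hairpin sequence is shown because all hairpin libraries rest on it.
Kdm6b hairpin: ctgttcttgagggacaaactc
Its first 18 bases match 1 annotated Kdm6b transcript, and no run of at least 18 of its bases was found in a transcript of another gene. Kdm6b had an FPKM of 6.74, 13.1, 2.73 and 4.83, so that the level with the hairpin was 40.6% of that with vector at rest and 36.8% of it after Bic/4AP. Each library had between 12976 and 13141 genes at or above an FPKM of 1. Read totals are unknown, and the depth behind a value is seen only in the authors' lower and upper bounds, which cover error within 1 library. For the 37 genes the upper bound lay above the value by a median of 7.77%, 6.63%, 5.68% and 5.95%. Markers of neurons and of astrocytes were both abundant: the median FPKM of 6 pan-neuronal markers was between 207 and 307, and that of 9 astrocyte markers between 153 and 176.

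Promoters were read from RefSeq (GRCm38.p6) as windows of 250 bases before to 50 bases after a start site. A window was found for 33 of the 43 genes. The core of the ISRE was searched on both strands as GAAANNGAAA, and the GAS as TTCNNNGAA, which reads the same on both strands. The 2 motifs may overlap. The ISRE core was present in 16 of the 33 genes (48.5%), compared with 3.99% of 27025 genes with a window (3.44% of 32851 windows). The GAS was present in 10 of 33 (30.3%), compared with 9.55% of genes (8.30% of windows). The stretches below are upstream of the start site and are shown because they carry the ISRE core in 5 genes that were high with the hairpin and in 2, Gbp2 and Irgm1, that were high with Bic/4AP. Capitals mark the ISRE core or overlapping cores on either strand, and each stretch is written 5′ to 3′ on the strand of the gene.
Rsad2, chr12:26456538-26456597, minus strand: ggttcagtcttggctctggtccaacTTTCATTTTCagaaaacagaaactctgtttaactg
Ifit1, chr19:34640760-34640819, plus strand: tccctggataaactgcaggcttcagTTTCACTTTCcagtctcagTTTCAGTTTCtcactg
Isg15, chr4:156200862-156200921, minus strand: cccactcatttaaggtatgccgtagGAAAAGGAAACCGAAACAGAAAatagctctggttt
Oas1a, chr5:120907526-120907570, minus strand: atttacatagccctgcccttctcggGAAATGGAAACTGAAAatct
Bst2, chr8:71537568-71537627, minus strand: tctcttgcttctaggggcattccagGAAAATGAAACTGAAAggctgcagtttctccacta
Gbp2, chr3:142620579-142620638, plus strand: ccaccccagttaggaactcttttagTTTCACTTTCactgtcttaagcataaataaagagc
Irgm1, chr11:48871421-48871475, minus strand: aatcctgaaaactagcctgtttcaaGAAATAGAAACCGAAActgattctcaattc
Rsad2 and Gbp2 each held 1 core in the whole window. Ifit1 held 2 that stood apart, and Oas1a, Bst2 and Irgm1 held 2 that overlapped. Isg15 held 3 overlapping cores. The Rsad2 core began 120 bases before the start site and the first Oas1a core 20 bases before it. A match is a run of letters and not a measured binding site.

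The hairpin culture at rest had higher levels of interferon-stimulated genes than the vector culture at rest. Differences are given in log2(FPKM + 1), where 1 is called 2-fold and the scale understates differences of weakly expressed genes. Of the 37 genes, 13 (35.1%) were at least 2-fold higher, compared with 0.409% of all genes compared, and 0 were 2-fold lower, compared with 0.661%. All 37 lay above 0, compared with 58.8% of all genes, and 35 were higher with authors' bounds that did not overlap, compared with 32.8%. The 2 whose bounds overlapped were Gbp2 and Samhd1. The median difference was 0.65 for the 37 genes and 0.05 for all genes. The median FPKM of the 37 was 5.71, 8.43, 11.5 and 9.04. Oas1a reached an FPKM of 1 only with the hairpin, so its inclusion leaned on the libraries where it was high. Among the 35 genes that reached that level in all 4 libraries, 12 were at least 2-fold higher, compared with 0.364% of all 12650 such genes. Among the 20 largest differences of all genes were 9 of the 37, and among the largest 50 were all 13. In bulk RNA, fewer cells of a type and less RNA per cell cannot be told apart. Markers of microglia, which can express these genes, differed the other way: 14 of 15 compared lay below 0, beside 5541 of all 13458 genes. The summed FPKM of all 18 was 151, 170, 68.1 and 78.8, of which 1 gene, Lyz2, made up 58.4, 69.4, 15.8 and 22.5. The part of these markers in the results was not tested.

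**Figure D1:**
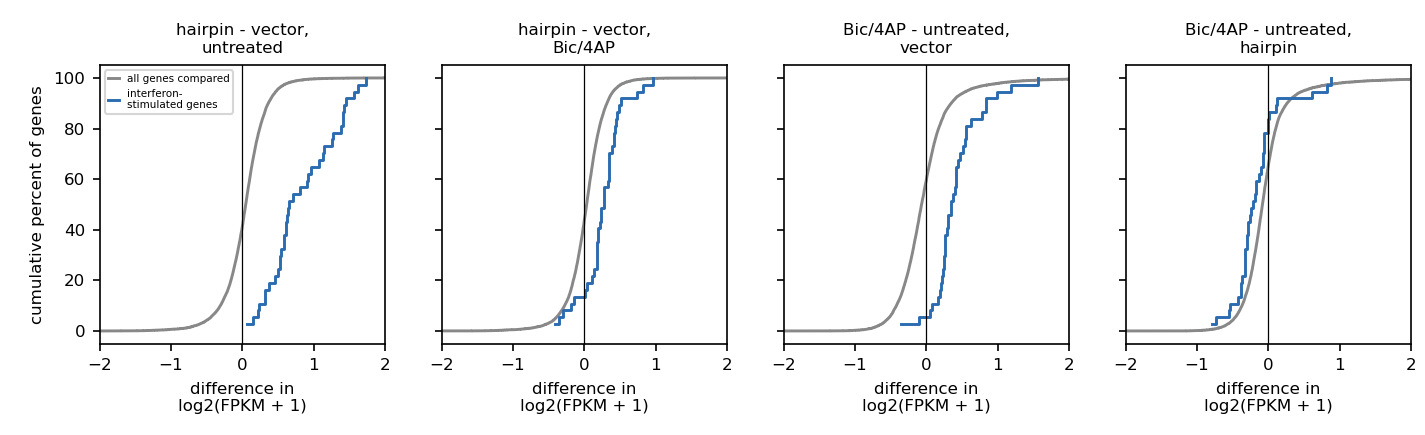
Cumulative percent of genes (vertical axis) against the difference in log2(FPKM + 1) (horizontal axis, cut at -2 and 2) in 4 comparisons, for the 37 interferon-stimulated genes (blue) and all 13458 genes compared (grey). The blue line lies to the right of the grey line in the first panel, with medians of 0.65 and 0.05, and to its left over most of the fourth, with medians of -0.21 and -0.08.

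The 4 transcription factors differed in size of difference. Irf7, which drives the transcription of interferon genes (chromosome 7, 148449088 to 148452300, mm9), had an FPKM of 2.21, 3.66, 8.55 and 6.80. Both hairpin libraries stood above both vector libraries, and the untreated difference was 1.57, the ninth largest of all genes compared. Irf9, the DNA-binding member of the complex (chromosome 14, 56222822 to 56228867), was at 13.0, 13.5, 20.3 and 16.04. Stat2, its partner (chromosome 10, 127707632 to 127729905), was at 10.6, 11.3, 15.9 and 13.1. For Irf9 and Stat2 the vector libraries lay close together and the untreated hairpin library was highest, with differences of 0.61 and 0.54. Irf1 (chromosome 11, 53583516 to 53591876), a factor that also acts downstream of interferon gamma and NF-kB, was at 5.84, 12.6, 8.64 and 16.8. Its order was set first by treatment, since both Bic/4AP libraries stood above both untreated ones. With the hairpin Irf1 was higher by 0.50 untreated and by 0.39 with Bic/4AP.

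RNA sensors were higher with the hairpin at rest, each by less than 1 on the log2(FPKM + 1) scale, with a median of 0.61 over the 4 compared. Ddx58, which encodes RIG-I, a sensor of short RNA with a 5′ triphosphate (chromosome 4, 40150810 to 40186858), had an FPKM of 3.79, 4.495, 6.41 and 5.27. Ifih1, which encodes MDA5, a sensor of long double-stranded RNA (chromosome 2, 62433850 to 62484312), was at 1.72, 2.33, 3.06 and 3.05. Dhx58, which encodes LGP2, a regulator of the other two (chromosome 11, 100556198 to 100565585), was at 1.29, 1.63, 3.32 and 2.54. In all 3 genes both hairpin libraries stood above both vector libraries, with untreated differences of 0.63, 0.58 and 0.92. As a plain ratio of FPKM the untreated hairpin level of Dhx58 was 2.58 times that with vector, and its difference was 1.30 with a pseudocount of 0.1 in place of 1. Tlr3, the endosomal receptor for double-stranded RNA (chromosome 8, 46481019 to 46495893), was at 5.14, 6.28, 6.66 and 6.34. Only the untreated vector library was low for Tlr3: the other 3 had overlapping bounds.

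**Figure D2:**
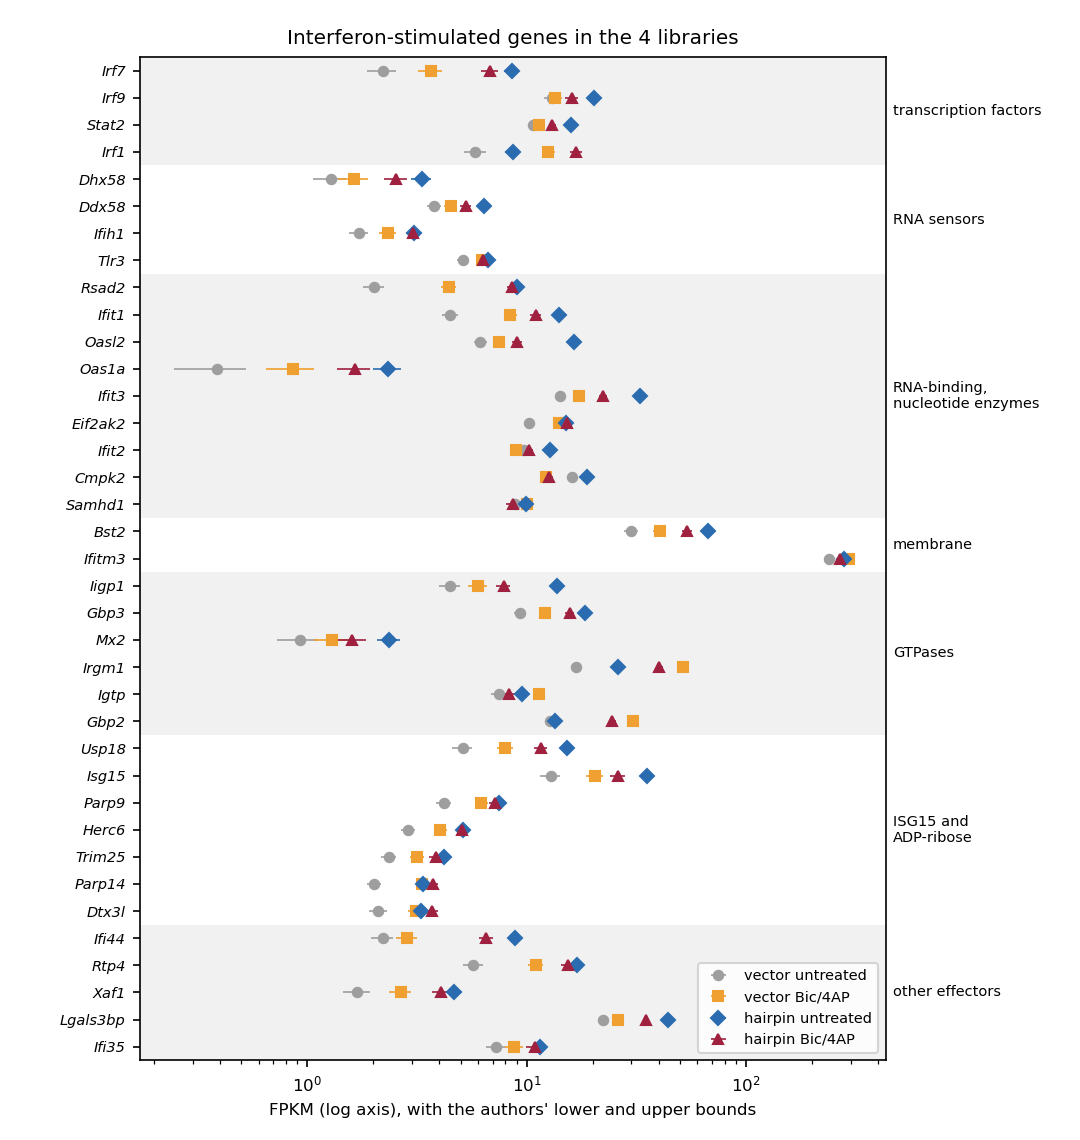
FPKM (horizontal log axis) of the 37 interferon-stimulated genes, ordered by role, in the 4 libraries, with bars for the authors' lower and upper bounds within a library. Blue diamonds (hairpin untreated) lie farthest right for 28 genes and grey circles (vector untreated) farthest left for 34, while Irgm1 and Gbp2 have their orange squares (vector Bic/4AP) farthest right.

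Effectors that bind RNA or act on nucleotides held the largest difference of the 37 genes. Rsad2 encodes viperin, an enzyme that makes a chain-terminating nucleotide analog (chromosome 12, 27127608 to 27141317), and had an FPKM of 2.01, 4.41, 9.004 and 8.55. Its untreated difference of 1.73 was the fourth largest of all genes, a 4.47-fold ratio of FPKM. Ifit1, which binds viral RNA caps (chromosome 19, 34715379 to 34724499), was at 4.49, 8.43, 14.1 and 11.0. Ifit3, which binds and stabilises Ifit proteins (chromosome 19, 34658019 to 34663472), was at 14.2, 17.3, 32.7 and 22.3. For both Ifit genes the untreated hairpin library was the highest and the bounds of the 4 libraries did not overlap. Oas1a, whose product makes the oligoadenylates that activate RNase L (chromosome 5, 121346266 to 121357534), was at 0.387, 0.860, 2.33 and 1.65. Oasl2, a relative of the same family (chromosome 5, 115346943 to 115362254), was at 6.15, 7.51, 16.3 and 9.04. Untreated differences were 1.46 for Ifit1, 1.14 for Ifit3, 1.27 for Oas1a and 1.28 for Oasl2. Fragments from near-identical copies, such as those in the Ifit, Oas, Gbp and Irg families, may be split between genes, so the level of a single copy is uncertain.

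The other 4 compared genes of this kind were less than 2-fold apart. Eif2ak2 encodes PKR, a kinase that stops translation when it binds double-stranded RNA, and was at 10.2, 13.98, 15.1 and 15.2, with the untreated vector library low and the other 3 close together. Ifit2, another Ifit protein, was at 9.67, 8.92, 12.8 and 10.3, and its untreated difference was 0.37. Cmpk2, a mitochondrial nucleotide kinase, was at 16.01, 12.3, 18.9 and 12.6. It had the lowest levels in both Bic/4AP libraries, with a difference of 0.23 between hairpin and vector untreated. Samhd1, which degrades deoxynucleotides, was at 8.81, 10.0002, 9.88 and 8.64, with overlapping bounds in the untreated pair.

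Neighbouring genes did not always share a pattern. Cmpk2 lies 12.8 kb from Rsad2 in the mm9 loci of the tables, and the untreated hairpin difference was 1.73 for Rsad2 but 0.23 for Cmpk2. With Bic/4AP in vector cultures Rsad2 was higher by 0.84, whereas Cmpk2 was lower, at -0.36. Ifit2, Ifit3 and Ifit1 follow each other on chromosome 19, with 6.99 kb and 51.9 kb between them, and had untreated differences of 0.37, 1.14 and 1.46. Gbp3 and Gbp2 lie 47.5 kb apart on chromosome 3, with differences of 0.91 and 0.06. The loci of Parp9 and Dtx3l overlap by 558 bp, and reads from the shared stretch cannot be assigned without strand, which the sources used here do not give.

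The 2 membrane effectors included the most abundant gene of the list, Ifitm3. Bst2 encodes tetherin, which holds budding virions at the cell surface (chromosome 8, 74058161 to 74061336), and had an FPKM of 29.998, 40.3, 66.8 and 53.9. Both hairpin libraries stood above both vector libraries, with an untreated difference of 1.13. Ifitm3, which blocks fusion of viral and endosomal membranes (chromosome 7, 148195489 to 148196643), was at 238, 295, 280 and 268. The highest Ifitm3 level was that of the vector culture with Bic/4AP, and the untreated hairpin difference was 0.24.

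GTPases of the Mx, guanylate-binding and immunity-related families were mixed. Iigp1, an immunity-related GTPase that acts on vacuoles of intracellular parasites, had an FPKM of 4.48, 5.99, 13.7 and 7.85, and an untreated difference of 1.42. Gbp3, a guanylate-binding protein, was at 9.28, 12.1, 18.4 and 15.7, and Mx2, a dynamin-like GTPase, at 0.926, 1.30, 2.36 and 1.60. These 3 genes were highest in the untreated hairpin library. Irgm1, a regulator of other immunity-related GTPases (chromosome 11, 48678751 to 48684848), was at 16.8, 51.8, 26.1 and 40.3. Gbp2 (chromosome 3, 142283627 to 142300972) was at 12.8, 30.4, 13.4 and 24.5. Irgm1 and Gbp2 had both Bic/4AP libraries above both untreated ones, and the vector Bic/4AP library was the highest. Igtp, a further immunity-related GTPase, was at 7.44, 11.4, 9.55 and 8.31 and was also highest in the vector Bic/4AP library.

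Genes of ISG15 and ADP-ribose conjugation were all higher with the hairpin at rest, 2 of 7 at least 2-fold. Isg15, a ubiquitin-like protein that is attached to other proteins (chromosome 4, 155573533 to 155574927), had an FPKM of 12.8, 20.4, 35.3 and 26.0. Usp18, the protease that removes Isg15 and that also dampens the interferon receptor (chromosome 6, 121195924 to 121220935), was at 5.11, 7.99, 15.3 and 11.6. The 4 libraries stood in the same order for both genes, with untreated differences of 1.39 and 1.42. Herc6, the mouse ligase for Isg15, was at 2.88, 4.05, 5.11 and 5.09, and Trim25, a ubiquitin ligase that acts on RIG-I, at 2.35, 3.16, 4.21 and 3.85. The ADP-ribosyltransferase genes Parp9 (4.19, 6.22, 7.495 and 7.19) and Parp14 (2.02, 3.32, 3.37 and 3.73) and the Parp9 partner Dtx3l (2.11, 3.13, 3.29 and 3.68) had differences of 0.71, 0.53 and 0.46. In these 5 genes the untreated vector library was the lowest, and the bounds of the hairpin libraries overlapped.

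Of the remaining 5 effectors, 3 were at least 2-fold higher with the hairpin at rest. Ifi44, an interferon-induced cytoplasmic protein (chromosome 3, 151393887 to 151412923), had an FPKM of 2.21, 2.86, 8.86 and 6.54. Rtp4, a chaperone of membrane receptors (chromosome 16, 23610005 to 23614308), was at 5.71, 11.0, 17.0 and 15.4. Xaf1, a binding partner of the apoptosis inhibitor XIAP, was at 1.69, 2.67, 4.68 and 4.06. In these genes both hairpin libraries stood above both vector libraries, with untreated differences of 1.62, 1.42 and 1.08. Lgals3bp, a secreted glycoprotein that binds galectins, was at 22.2, 26.0, 44.1 and 35.0, and Ifi35 at 7.28, 8.76, 11.5 and 10.9, with differences of 0.96 and 0.59. By role, the median untreated difference was 0.57 for the 4 transcription factors, 0.61 for the 4 sensors and 0.80 for the 29 effectors, of which 12 were at least 2-fold higher.

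With Bic/4AP, hairpin and vector cultures stood closer together. Of the 37 genes, 0 were at least 2-fold higher with the hairpin (0.186% of all genes) and 0 at least 2-fold lower (0.528%). Above 0 lay 32, compared with 56.4% of all genes, and 28 were higher with bounds that did not overlap, compared with 28.2%. The median was 0.27, beside 0.03 for all genes. Ifi44 (0.97), Rsad2 (0.82) and Irf7 (0.74) kept the largest differences. The 5 genes below 0 were Igtp (-0.41), Irgm1 (-0.35), Gbp2 (-0.30), Samhd1 (-0.19) and Ifitm3 (-0.14), and 3 of them were GTPases. Each of the 5 was lower with bounds apart, as were 2806 of all 13458 genes. Microglial markers had a median of -0.87 in the same comparison, with 13 of 15 below 0, beside 5867 of all 13458 genes, and their part was not tested.

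**Figure D3:**
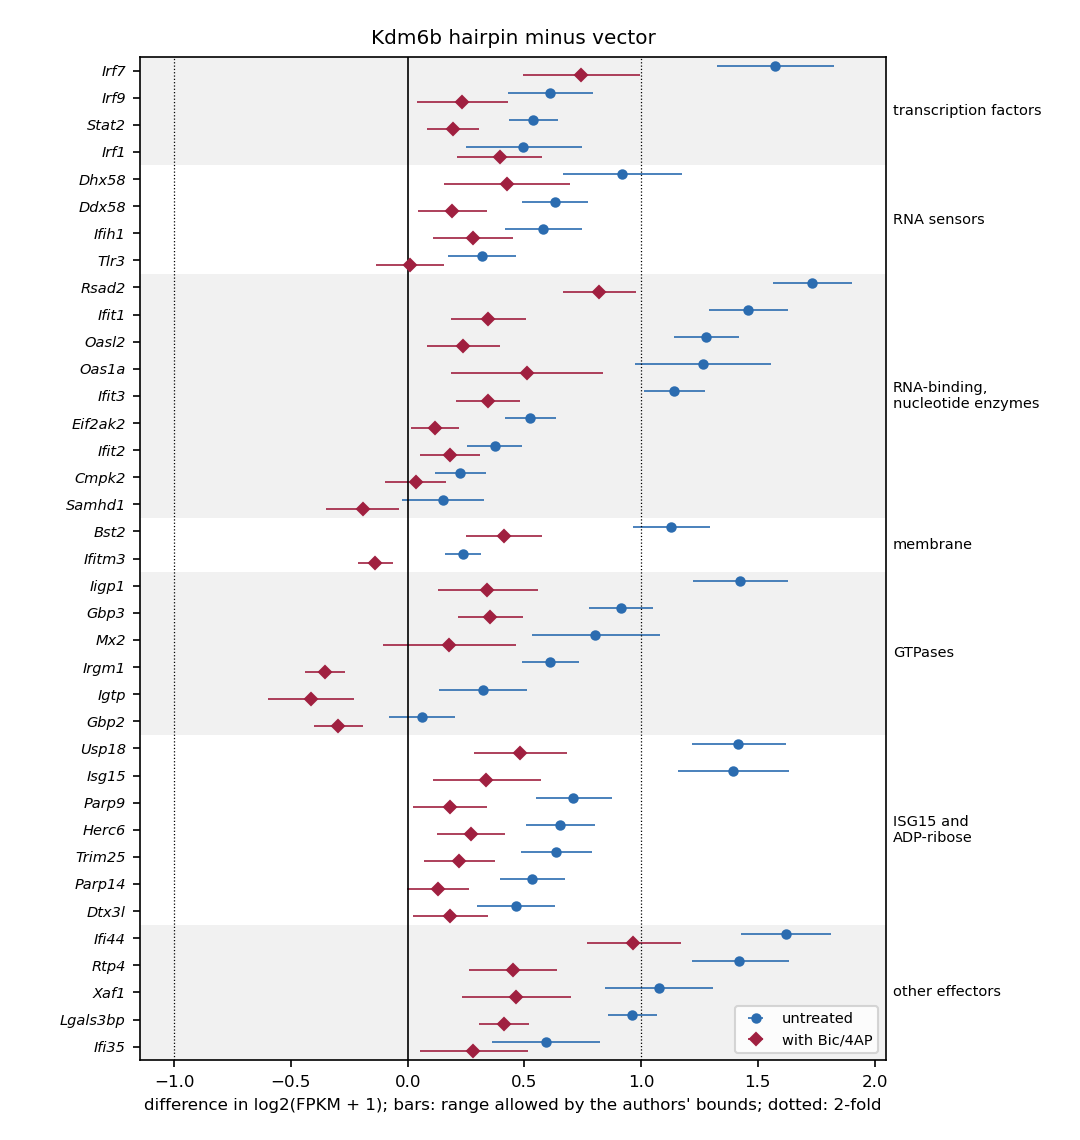
Difference in log2(FPKM + 1) between hairpin and vector cultures (horizontal axis) for each of the 37 genes, untreated (blue circles) and with Bic/4AP (red diamonds), with bars for the range that the authors' bounds allow and dotted lines at 2-fold. All 37 circles lie above 0, 13 of them past 2-fold, and each diamond lies to the left of its circle.

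Bic/4AP went with higher levels in vector cultures and mostly lower levels in hairpin cultures. In vector cultures 35 of 37 genes lay above 0 after Bic/4AP, compared with 40.6% of all genes, with a median of 0.35 beside -0.07. Irgm1 (1.57) and Gbp2 (1.19) were at least 2-fold higher (2.18% of all genes) and 0 were 2-fold lower (0.267%), so the 2-fold count (5.41%) rests on these 2 genes. Bounds did not overlap for 30 of the higher genes, compared with 21.5% of all genes. Irf1 (0.99), Rsad2 (0.84), Rtp4 (0.83), Ifit1 (0.78) and Isg15 (0.63) followed, and only Cmpk2 (-0.36) and Ifit2 (-0.10) lay below 0.

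In hairpin cultures 6 of 37 genes lay above 0 after Bic/4AP, compared with 34.8% of all genes, with a median of -0.21 beside -0.08. The 3 that were higher with bounds apart (16.9% of all genes) were Irf1 (0.89), Gbp2 (0.83) and Irgm1 (0.61), which were also the largest in vector cultures. No gene was 2-fold higher or lower (2.06% and 0.156% of all genes). Lower with bounds apart were 19 of 37, compared with 37.3%, led by Oasl2 (-0.79), Iigp1 (-0.73), Cmpk2 (-0.55) and Ifit3 (-0.53). The number above 0 depended on scaling: it was 13 under median-ratio scaling, where the median was -0.12, 8 under upper-quartile scaling and 5 under scaling to a common sum.

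**Figure D4:**
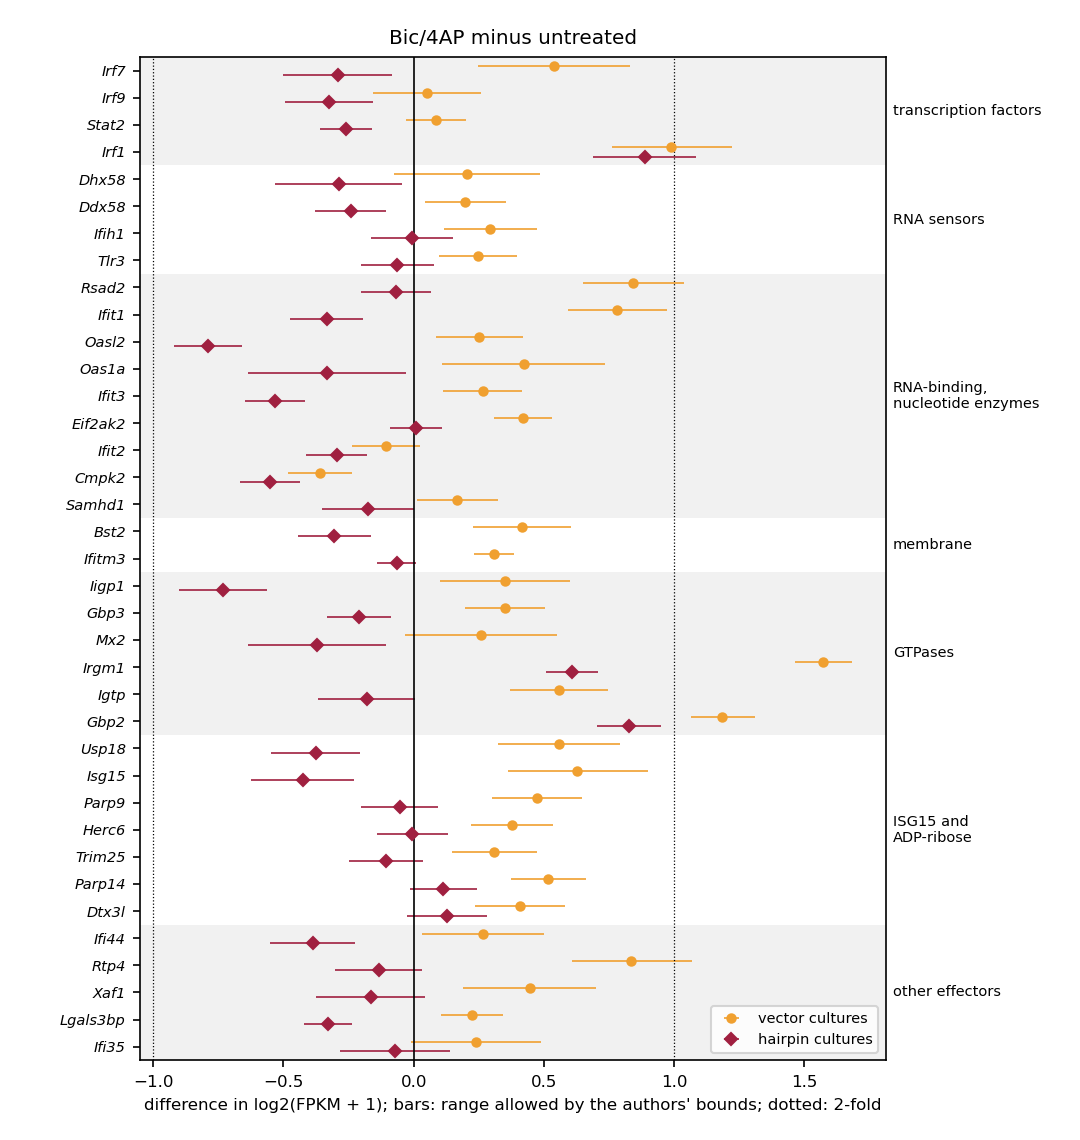
Difference in log2(FPKM + 1) between Bic/4AP and untreated cultures (horizontal axis) for each of the 37 genes, in vector (orange circles) and hairpin cultures (red diamonds), with bars for the range that the authors' bounds allow and dotted lines at 2-fold. The circles lie above 0 for 35 genes, the diamonds below 0 for 31, and Irf1, Gbp2 and Irgm1 stand clearly above 0 in both.

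The response to Bic/4AP was lower in hairpin than in vector cultures for each of the 37 genes. The difference of the 2 responses lay above 0 for 0 of 37, compared with 45.1% of all genes, with a median of -0.53 beside -0.02. At least 2-fold lower were 4 (10.8%), compared with 0.126%: Ifit1 (-1.11), Iigp1 (-1.08), Isg15 (-1.05) and Oasl2 (-1.04). None was 2-fold higher (0.111% of all genes). The smallest differences were those of Irf1 (-0.10), Cmpk2 (-0.19) and Ifit2 (-0.19). Of the lowest 50 genes of this measure, 14 were among the 37. This measure holds the 2 untreated libraries as well, so it is not separate from the hairpin difference at rest. Higher in vector and lower in hairpin cultures were 29 of 37 (78.4%), compared with 12.2% of all genes, and for 13 of them both differences had bounds apart, compared with 0.594% of all genes.

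The order of the 4 libraries was shared by most genes. In 26 of 37 (70.3%) it ran hairpin untreated, hairpin Bic/4AP, vector Bic/4AP and vector untreated from highest to lowest, an order held by 6.63% of all genes compared. The highest library was hairpin untreated in 28, compared with 36.5% of all genes. The lowest was vector untreated in 34, compared with 26.9%. The exceptions at the low end were Cmpk2 and Ifit2, lowest in vector Bic/4AP, and Samhd1, lowest in hairpin Bic/4AP. Libraries next to each other in this order were not always apart: in Ifih1 (3.06 and 3.05 with the hairpin) and Herc6 (5.11 and 5.09) the bounds overlapped.

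Genes with and without an ISRE core in the window were set side by side. The 15 compared genes with the core had a median hairpin difference of 0.63 and the 15 with a window but no core 0.61. The vector response to Bic/4AP had medians of 0.42 and 0.25, and the difference of the responses -0.72 and -0.38. Among the 7 stretches printed above, those of Gbp2 and Irgm1 belonged to the genes with the largest vector responses, whose untreated hairpin differences were 0.06 and 0.61. Irf1 had a GAS that began 90 bases before its start site and no ISRE core, and Igtp had both motifs. Ifit2 had a GAS and no ISRE core in its window, unlike its neighbours Ifit1 and Ifit3.

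**Figure D5:**
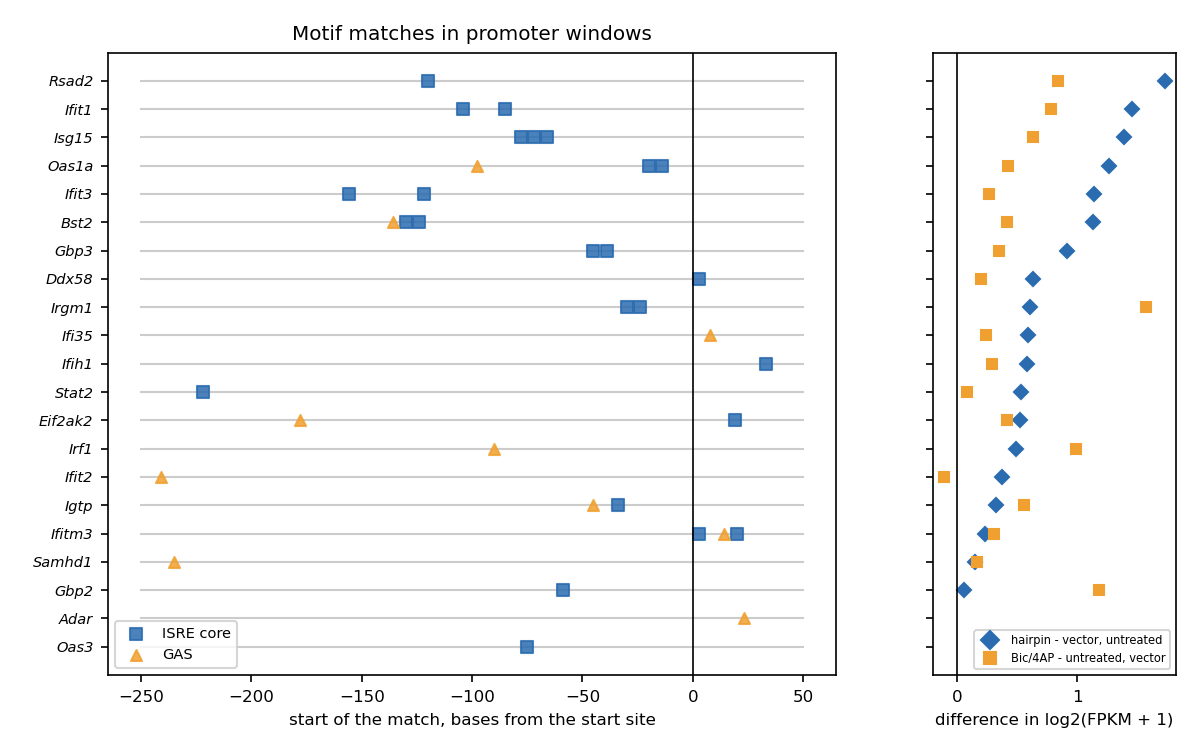
Left, positions of ISRE core (squares) and GAS (triangles) matches in bases from the start site for the genes with a match, in windows from 250 bases before to 50 after it; right, the same genes' differences in log2(FPKM + 1) for hairpin minus vector untreated (blue) and for Bic/4AP minus untreated in vector cultures (orange). Genes are ordered by the blue value. Irgm1 and Gbp2 have the farthest orange squares, and their first ISRE cores begin 30 and 59 bases before the start site. Those of Oas1a, Igtp and Gbp3 begin 20, 34 and 45 bases before it, with orange values of 0.42, 0.56 and 0.35. Adar and Oas3 have no difference drawn.

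Upstream parts of the pathway had smaller median differences than the list. Interferon genes were at or near 0: of 19 in the tables, none reached an FPKM of 1, the highest value was 0.221 for Ifng in the untreated hairpin library, and Ifnb1 stood at 0.0371, 0.0797, 0.0356 and 0.0747. Receptor and kinase genes had a median untreated hairpin difference of 0.11 over 10 compared. The type I receptor genes Ifnar1 (12.6, 13.8, 12.7 and 12.6) and Ifnar2 (11.5, 13.7, 12.7 and 12.3) were nearly level over the libraries. Ifngr2, a subunit of the interferon gamma receptor, was lower with the hairpin, at 56.0, 47.7, 33.1 and 31.5. A list of sensor adaptors and the factors they activate also held Toll-like receptor and nuclease genes. Its median untreated hairpin difference was 0.12 over 15 compared. None was 2-fold apart, beside 0.409% of all genes higher and 0.661% lower.

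A list of negative regulators, which also held the exonuclease gene Isg20, was mixed. Isg20 is an effector and not an inhibitor of the pathway, and both medians given here are its own values. With Bic/4AP in vector cultures 6 of 9 compared lay above 0 and 3 below (median 0.32), beside 40.6% of all genes above 0. In that comparison 2 of the 9 were at least 2-fold higher, beside 2.18% of all genes. For the hairpin at rest 6 of 9 lay above 0 and 3 below (median 0.05), beside 58.8% of all genes above 0. Socs3, an inhibitor of the receptor kinases, was at 5.52, 14.7, 7.96 and 14.8, higher with Bic/4AP in both backgrounds and higher with the hairpin at rest. A further 45 interferon-stimulated genes, none of them among the 43, had a median hairpin difference at rest of 0.37. Of these, 39 lay above 0, beside 58.8% of all genes, and 4 were at least 2-fold higher, beside 0.409%: the chemokine gene Cxcl10 (1.48), I830012O16Rik (1.28), Ifi27l2a (1.22) and Lgals9 (1.11). In this second list 42 of 45 had a lower response to Bic/4AP with the hairpin, as did 7393 of all 13458 genes. Antigen presentation genes had a median hairpin difference at rest of 0.33 over 20 compared. Of these, 0 were at least 2-fold apart, beside 0.409% of all genes higher and 0.661% lower. Above 0 lay 17 of the 20, and 12 were higher with bounds apart, beside 58.8% and 32.8% of all genes.

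Markers of cell types were measured beside the list. All 18 microglial markers were listed above 0 in every library, and 5 of the 15 compared were at least 2-fold lower with the hairpin in each state, beside 0.661% of all genes untreated and 0.528% with Bic/4AP. The median microglial difference at rest was -0.56, and 10 of 15 were lower with bounds apart. Lyz2, a lysozyme gene of myeloid cells, had the lowest difference (-1.82), at 58.4, 69.4, 15.8 and 22.5. C1qa, a complement gene, was at 14.2, 13.3, 4.66 and 4.72. Bounds at rest overlapped for Fcer1g (-0.44), Cd68 (-0.32), Cx3cr1 (-0.14), Aif1 (-0.08) and P2ry12 (0.24), the only one above 0. After Bic/4AP the microglial median was 0.03 in vector and 0.02 in hairpin cultures. Astrocyte markers had a median hairpin difference at rest of 0.03, excitatory neuron markers -0.26 and inhibitory neuron markers -0.51. Lower with bounds apart at rest were 6 of 6 pan-neuronal markers (median -0.14) and 4 of 7 oligodendrocyte lineage markers (median -0.28). So were 6 of 7 fibroblast and meningeal markers (median -0.33) and 3 of 4 endothelial and mural markers (median -0.16). The same count was 7 of 9 for excitatory neuron, 8 of 10 for inhibitory neuron and 2 of 9 for astrocyte markers. Of the 9 astrocyte markers, 5 were higher with bounds apart. Among all 13458 genes, 2955 were lower with bounds apart and 4419 higher. The 7 markers of T cells and other leukocytes stayed under an FPKM of 1 in each library. The part of cell composition in the interferon-stimulated genes was not tested.

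Of the 6 genes left out of the counts, Oasl1 (0.0767, 0.247, 0.545 and 0.176), Oas2 (0.172, 0.228, 0.446 and 0.289), Oas3 (0.0922, 0.148, 0.169 and 0.152) and Mx1 (0.109, 0.160, 0.236 and 0.158) were highest in the untreated hairpin library. Zbp1, a sensor of left-handed RNA helices, was at 0.375, 0.266, 0.733 and 0.774. At these levels the bounds overlapped between the untreated libraries for Oas3, Mx1 and Zbp1. Adar, which edits double-stranded RNA (chromosome 3, 89518944 to 89557377), was the only one of the 43 that was lower with the hairpin at rest, at 26.5 in vector and 16.5 in hairpin cultures (-0.65, bounds apart). In the vector Bic/4AP library its row was marked as failed, with 24.6 and bounds from 0 to 35.3, and in the hairpin Bic/4AP library it was at 14.9. Its locus overlaps that of Chrnb2 by 8 bp.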

How the data were processed

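Libraries of polyA RNA from 4 cultures were made with an Illumina TruSeq kit, per the labels' protocols. Per the submitters' processing notes, the tools were Cufflinks 2.0.2, TopHat2 2.0.8b and CASAVA 1.8, and the build was mm9. The deposited tables hold FPKM computed by the authors, with lower and upper bounds. Each of the 43 symbols had 1 row. Symbols with a failed row (42) and small RNA symbols (729) were left out of all-gene counts. Genes were compared where at least 1 library reached an FPKM of 1, in log2(FPKM + 1), without further scaling, in Python 3.11.15 with pandas 2.3.3 and numpy 2.4.6. The script was tested on simulated data. No test was made, since each group had a single library. Counts of genes are set beside the percent of all genes under the same rule where that was computed. Every gene of the list that passed the FPKM filter could be named, and from other lists up to 3 genes with the largest and 3 with the smallest untreated hairpin difference, besides Kdm6b, receptor, kinase and ligand genes and markers. Ccl5, Lgals9 and Isg20 were named after their values were seen. The genes and lists were chosen with earlier results of these data known. Alternatives changed pseudocount, filter, scaling and row choice. Keeping failed symbols, leaving out Parp9 and Dtx3l, and requiring that all 4 libraries reach an FPKM of 1 were added after seeing the data. The value of 1 gene of the receptor and kinase list is not reported here.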

Additional observations from a re-analysis of the deposited data

Results flagged for a closer look

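The responses of the list to Bic/4AP pointed in opposite directions in the 2 backgrounds, with a median of 0.35 in vector and -0.21 in hairpin cultures. All genes compared had medians of -0.07 and -0.08. With 1 library per group the difference was not tested. Under median-ratio scaling the median of the list in hairpin cultures was -0.12. In 13 of 37 genes the response was above 0 in vector and below 0 in hairpin cultures, with authors' bounds apart in both. The same held for 0.594% of all genes. On the log2(FPKM + 1) scale, the vector and hairpin responses were 0.54 and -0.29 for Irf7, 0.20 and -0.24 for Ddx58, and 0.26 and -0.39 for Ifi44. Among genes that act on RNA or nucleotides they were 0.78 and -0.33 for Ifit1, 0.27 and -0.53 for Ifit3, 0.25 and -0.79 for Oasl2, and 0.42 and -0.33 for Oas1a. In the Isg15 system they were 0.63 and -0.42 for Isg15 and 0.56 and -0.38 for Usp18. For the remaining effectors they were 0.42 and -0.30 for Bst2, 0.35 and -0.21 for Gbp3, 0.22 and -0.33 for Lgals3bp, and 0.35 and -0.73 for Iigp1. None of these single differences was tested either.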

How the results depend on the processing

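Each comparison had 1 library per group, so the bounds cover error within a library only and no replicate could be left out. No paired analysis was possible because there was 1 library per group and no test. With a pseudocount of 0.1, 1 gene was at least 2-fold higher with the hairpin under Bic/4AP, beside 0.788% of all genes. With Bic/4AP in vector cultures 4 were 2-fold higher (2.99% of all genes), and a response 2-fold lower with the hairpin was held by 9. With a pseudocount of 5 these last counts were 1 (1.27% of all genes) and 0. At that setting 5 genes were 2-fold higher with the hairpin at rest (0.0817% of all genes), with a median of 0.42. The all-gene share of lower responses was not computed for these settings. Without a filter on low values, 1 of 42 genes had a higher response with the hairpin (Zbp1, 0.15). Under median-ratio scaling 13 genes lay above 0 after Bic/4AP in hairpin cultures. All other counts and medians of the list kept their direction under the alternatives run. These counts stayed within 1.5 times the count. These medians stayed within the median distance, over the genes, from the middle to the end of the range that the bounds allow. Of 1975 single-gene differences over 11 settings, 62 moved by more than this distance for the gene itself. For the difference of the responses, the distances of both responses were added. Changing the filter or row choice, keeping failed symbols or leaving out genes cannot move a single-gene value, so the pooled count understates the dependence. A pseudocount of 0.1 moved 17 of 185 differences and a pseudocount of 5 moved 44 of 185. With a pseudocount of 5, 24 of 37 hairpin differences at rest moved. The other sign was taken under another scaling by 13 differences, all between -0.07 and 0.03 as reported. The largest shift of the median of all genes under a scaling was 0.08. With Adar kept, 37 of 38 genes lay above 0 for the hairpin at rest, with a median of 0.64.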

Other observations

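Irf1, Gbp2 and Irgm1 were higher with Bic/4AP in both backgrounds with bounds apart, unlike the rest of the list. Outside the 43 genes, Cxcl10 was at 3.99, 49.3, 12.9 and 66.4 and the chemokine gene Ccl5 at 1.03, 4.96, 0.431 and 8.34 (vector without and with Bic/4AP, then hairpin without and with it). The highest level of both was that of the hairpin culture with Bic/4AP, but the 2 genes differed otherwise. The hairpin difference at rest was 1.48 for Cxcl10 and -0.50 for Ccl5, whose bounds overlapped there. The difference of the Bic/4AP responses was -1.06 for Cxcl10 and 1.15 for Ccl5. In the same libraries Ifit1 was at 4.49, 8.43, 14.1 and 11.0.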
